A study of Mus musculus with 9 samples.

Results

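Interferon-stimulated genes are the genes that cells transcribe when type I, II or III interferons bind their receptors. The 52 described here were chosen by name from a list of known members (Rsad2, Usp18 and Isg15, the Ifit, Oas, Gbp and Mx families, the factors Irf1, Irf7, Irf9 and Stat2, and others), and each of the 52 symbols was found among the 55335 genes of the deposited table. The choice was made with earlier results of these data known. The 52 members were followed in 9 RNA sequencing libraries of BV2, an immortalised line of mouse microglia, labelled WT. Cells with ethanolamine under hypoxia were kept for 24 h at 1% oxygen with 100 µM of this precursor of membrane phospholipids (3 libraries). Hypoxia cells were kept for 24 h at 1% oxygen without it (3 libraries), and control cells were labelled 0 h (3 libraries). Hypoxia and control therefore differ in labelled time as well as in oxygen, and these cannot be told apart. None of the 9 libraries had ethanolamine without hypoxia.

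Interferons bind receptors that carry the kinases JAK1, JAK2 and TYK2, which phosphorylate STAT proteins. STAT2 and IRF9 are parts of the complex ISGF3, which binds interferon-stimulated response elements in promoters, while gamma-activated sites serve the type II response. The induced proteins include sensors of viral nucleic acids, enzymes that destroy or mark foreign RNA, the ubiquitin-like modifier ISG15, and GTPases that attack intracellular pathogens, and in microglia a low level of this programme is known to be kept up without infection.

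The values are FPKM, fragments normalised to gene length and library total, so levels can be compared between genes. Between libraries they are relative to each library's total, and a shift of abundant transcripts moves the other values. FPKM sums per library ran from 324121 to 331189 in control and from 345067 to 370322 in the hypoxic groups. In each library 11556 to 11924 genes reached 1 FPKM, and the read depth is unknown. Transcripts resembling ribosomal RNA took 7.79% ± 2.71 of the FPKM total with ethanolamine, 9.19% ± 2.16 in hypoxia and 4.08% ± 2.56 in control (SD, n = 3 each), and mitochondrial transcripts took 12.8% ± 0.319 with ethanolamine, 11.0% ± 0.625 in hypoxia and 12.5% ± 0.646 in control. Their part in the results was tested only by leaving them out of the total. Of 10 microglial and macrophage markers, 9 averaged at least 1 FPKM in each group. Their summed level was 1452 to 1487 FPKM with ethanolamine, 1387 to 1571 FPKM in hypoxia and 1096 to 1366 FPKM in control. The marker below that level was Aif1, and of 5 markers of homeostatic microglia Tmem119 and P2ry12 averaged under 1 FPKM in every group and Sall1 was listed at 0 throughout. Those 5 markers summed to 116 to 127 FPKM with ethanolamine, 129 to 140 FPKM in hypoxia and 42.7 to 49.5 FPKM in control. One label of the control samples names a fat cell treatment, against their titles; the 5 adipocyte markers summed to at most 0.127 FPKM in any library. The labels do not say whether the libraries of a group were cultured separately, and the p-values reflect the spread between libraries, which may be technical. In bulk RNA, fewer cells that express a gene and less RNA per cell cannot be told apart.

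Of the 52 members, 32 averaged at least 1 FPKM over the 9 libraries and were tested, and 20 did not. The members summed to 222 ± 17.2 FPKM with ethanolamine, 254 ± 14.7 FPKM in hypoxia and 330 ± 17.7 FPKM in control (SD, n = 3). Bst2, Trim25, Oasl1 and Slfn2 were the most abundant, and without these 4 the sum was 93.6 ± 1.41 FPKM with ethanolamine, 102 ± 6.32 FPKM in hypoxia and 168 ± 20.4 FPKM in control. Of the 32 tested members, 26 reached 1 FPKM in the mean of each group. Ifit2, Cmpk2 and Usp18 passed the filter through the control libraries alone, Ddx58 and Parp14 through control and hypoxia, and Igtp through control and ethanolamine, so their direction is partly set by the filter. Cmpk2 was under the filter when any control library was left out, and Ifit2 when control library 2 or 3 was.

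**Figure D1:**
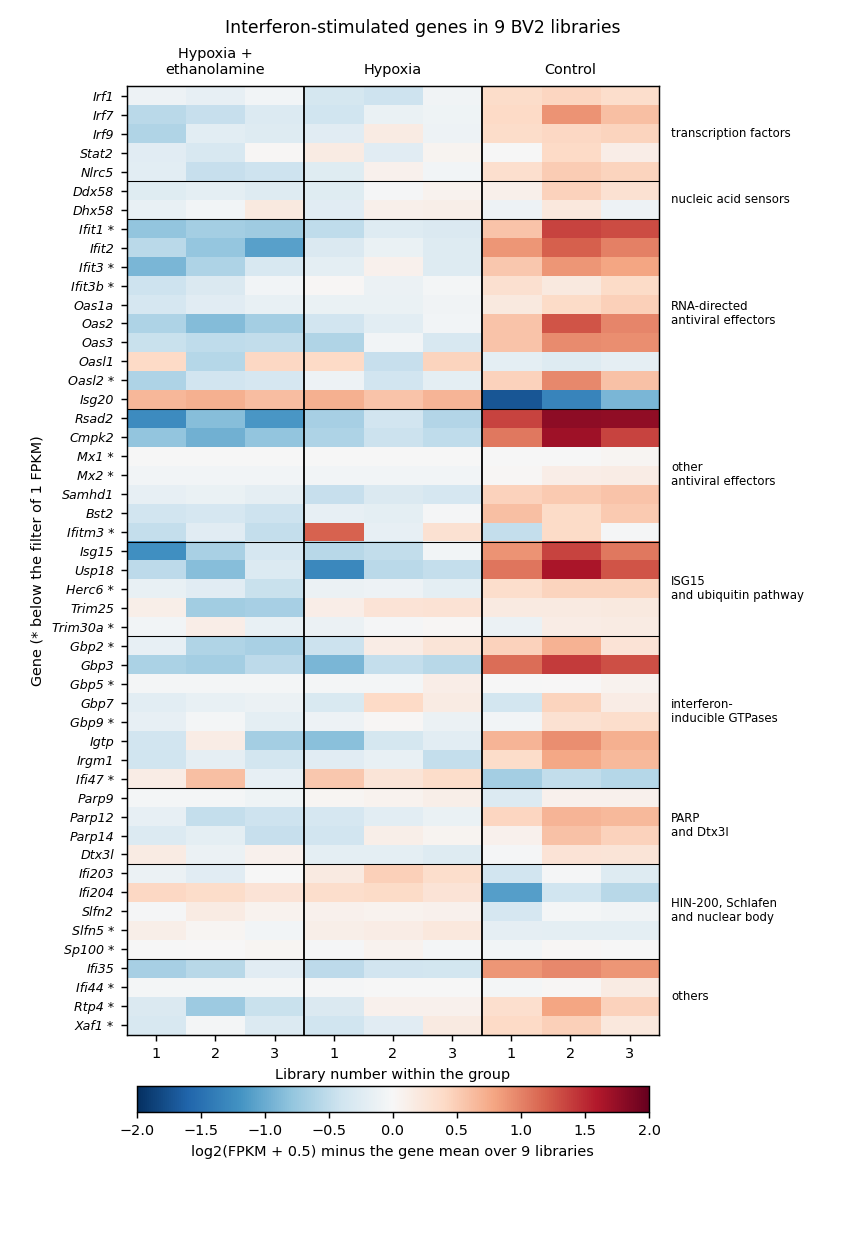
Level of the 50 members detected in at least 1 of 9 libraries, as log2(FPKM + 0.5) minus the gene's mean (red higher, blue lower), by role (rows) and library (columns); Ifih1 and Zbp1, at 0 throughout, are left out. The 3 control columns are red for Rsad2, Cmpk2, Ifit2, Usp18, Isg15 and Gbp3, whereas Isg20 and Ifi204 are blue in control and red in all 6 hypoxic columns.

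Hypoxia against control asks how this programme differs between cells after 24 h at 1% oxygen and cells labelled 0 h. Most members that could be tested fell, the largest falls being those of Rsad2, Usp18, Gbp3, Cmpk2 and Isg15, while Isg20, Ifi204, Ifi203 and Slfn2 rose. Tested with limma on log2(FPKM + 0.5) over 11802 genes and called at an adjusted p under 0.05, 21 of 32 members (65.6%) were lower, beside 34.7% of all genes tested, and 4 (12.5%) were higher, beside 24.7%. In either direction 59.4% of all genes were called. A fall of at least 1 on the log2 scale was called for 10 members (31.2%, beside 8.1% of all genes) and a rise of that size for 2 (6.25%, beside 7.22%). The median log2 change was -0.57 over the tested members and -0.09 over all tested genes. Those 10 include Ifit2, Cmpk2, Usp18 and Igtp, whose direction is partly set by the filter. Among the 26 members with a mean of at least 1 FPKM in each group, 16 were lower (61.5%, beside 35.4% of the 10896 genes at that level) and 4 higher (15.4%, beside 23.5%), with a median of -0.48, and 6 fell by at least 1 (23.1%, beside 7.65%). With median-of-ratios scaling 20 of the 32 members were lower and 4 higher (62.5% and 12.5%, beside 30.1% and 29.2% of all genes), and with quantile scaling 22 and 4 (68.8% and 12.5%, beside 30.9% and 28.1%). All 3 hypoxia libraries lay below all 3 control libraries for 21 tested members (beside 37.7% of all genes) and above them for 4 (beside 27.3%). Without the ribosomal RNA-like and mitochondrial transcripts in the total, 21 members were lower and 3 higher (65.6% and 9.38%, beside 35.2% and 23.5% of all genes).

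**Figure D2:**
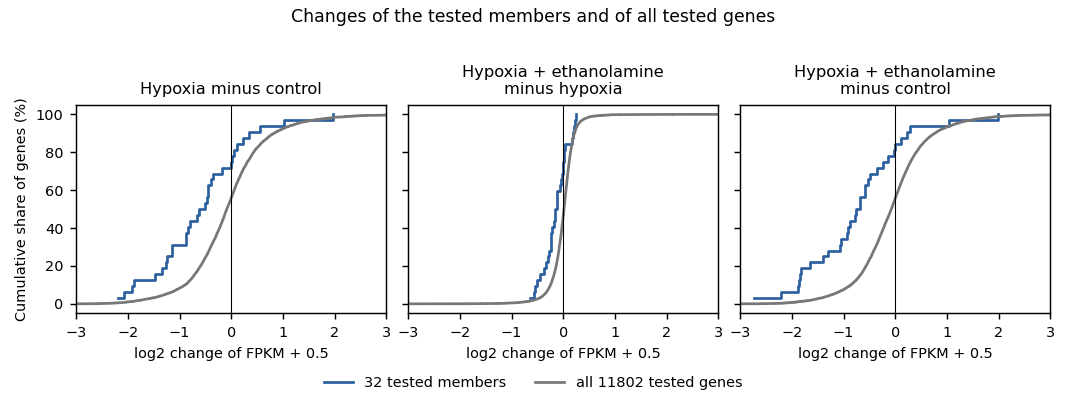
Cumulative share of genes (%) by log2 change for the 32 tested members (blue) and all 11802 tested genes (grey) in the 3 comparisons. The members' curve lies left of that of all genes over most of its length, with medians of -0.57 against -0.09 for hypoxia minus control, -0.14 against 0.01 for hypoxia with ethanolamine minus hypoxia, and -0.73 against -0.08 for hypoxia with ethanolamine minus control.

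The promoters of the 4 most lowered and 2 most raised members with an entry in the RefSeq promoter table (build GRCm38.p6) are shown because these 6 genes carry the split between falling and rising members. Each line gives the 160 bases just before the start site, 5′ to 3′ on the gene's strand. Capitals mark matches on either strand to GAAANNGAAA, the core of the interferon-stimulated response element, or to TTCNNNGAA, the gamma-activated site.
Rsad2, chr12:26456453-26456612, minus strand: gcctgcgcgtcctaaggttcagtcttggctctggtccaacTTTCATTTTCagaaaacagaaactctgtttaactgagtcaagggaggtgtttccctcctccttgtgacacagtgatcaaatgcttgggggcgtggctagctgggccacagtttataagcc
Gbp3, chr3:142559884-142560043, plus strand: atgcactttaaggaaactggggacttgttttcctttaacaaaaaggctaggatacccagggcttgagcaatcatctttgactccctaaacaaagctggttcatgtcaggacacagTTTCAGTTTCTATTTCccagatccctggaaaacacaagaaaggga
Cmpk2, chr12:26469055-26469214, plus strand: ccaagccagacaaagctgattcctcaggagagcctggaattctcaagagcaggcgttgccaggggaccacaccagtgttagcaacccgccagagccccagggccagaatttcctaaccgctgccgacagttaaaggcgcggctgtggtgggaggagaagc
Isg15, chr4:156200819-156200978, minus strand: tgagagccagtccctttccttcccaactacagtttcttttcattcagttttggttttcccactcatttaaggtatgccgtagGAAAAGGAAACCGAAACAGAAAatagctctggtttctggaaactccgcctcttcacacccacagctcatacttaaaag
Isg20, chr7:78913264-78913423, plus strand: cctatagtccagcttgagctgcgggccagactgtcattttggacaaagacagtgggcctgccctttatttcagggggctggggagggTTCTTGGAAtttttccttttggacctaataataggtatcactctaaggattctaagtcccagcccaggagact
Ifi203, chr1:173942493-173942652, minus strand: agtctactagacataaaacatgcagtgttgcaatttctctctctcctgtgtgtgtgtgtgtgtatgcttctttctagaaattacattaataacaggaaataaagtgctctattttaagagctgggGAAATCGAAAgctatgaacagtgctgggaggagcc

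The windows differ in what they hold. Isg15 had 3 overlapping response element cores, Gbp3 had 2 overlapping ones, Rsad2 and Ifi203 had 1 each, Isg20 had a gamma-activated site and no core, and Cmpk2 had neither. In the full windows of 250 bases before to 50 after the start, 9 of the 18 lowered members in the table held the response element core in at least 1 window, beside 3.99% of all 27025 genes in it. All members were chosen as interferon-stimulated genes, so this contrast with all genes says nothing about their fall. Members that were not lowered held the core too, with 9 of 15 under the filter, 2 of 4 tested and not called, and 1 of 3 raised. Only 15 of 20, 4 of 7 and 3 of 4 members of these sets have an entry, under the 80% needed. Their shares were therefore not set against that of the lowered members. The gamma-activated site was found in 7 of the 18 (38.9%), beside 9.55% of all genes. It was also in 2 of the 15 under the filter, 1 of the 4 not called and 1 of the 3 raised. ACGTG, the core of the hypoxia response element, was in 1 of the 18 (5.56%), beside 21.8% of all genes. It was also in 1 of the 15 under the filter, 1 of the 4 not called and 1 of the 3 raised. That raised member was Isg20, with 2 matches in a window other than the one shown. The same count over all 52 members is void, because 40 of them (76.9%, under the 80% needed) are in the table. These are matches of letters, counted on both strands, and not measured binding.

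By role, the counts of called members rest on at most 6 tested genes each and stand beside 34.7% of all genes lower and 24.7% higher. Transcription factors of the pathway were lower in hypoxia for 4 of 5 tested members. Irf7, which amplifies interferon alpha transcription, had 1.17, 1.52 and 1.57 FPKM in hypoxia, against 2.39, 3.59 and 2.84 FPKM in control (log2 change -0.83, SE 0.15, limma adjusted p = 0.0012). Irf1, a factor induced early by interferon, had 2.04, 1.93 and 2.57 FPKM in hypoxia, against 3.71, 3.85 and 3.65 FPKM in control (log2 change -0.67, SE 0.10, limma adjusted p = 0.000387). For both, every hypoxia library lay under every control library. Irf9, the DNA-binding subunit of ISGF3, had 1.45, 2.07 and 1.64 FPKM in hypoxia, against 2.44, 2.56 and 2.63 FPKM in control (log2 change -0.46, SE 0.14, limma adjusted p = 0.019). Its groups did not overlap, but its call was lost without hypoxia library 1, hypoxia library 3 or control library 3 (limma adjusted p = 0.0687, 0.054 and 0.0572). The call of Irf9 was also lost with no filter (limma adjusted p = 0.05045). Its partner Stat2 had 1.38, 0.948 and 1.26 FPKM in hypoxia, against 1.17, 1.73 and 1.36 FPKM in control, and these overlapping values gave a log2 change of -0.18 (SE 0.16, limma adjusted p = 0.375). Nlrc5, the transactivator of MHC class I genes, fell by 0.50 on the log2 scale (SE 0.10). The exons of Irf9 overlap those of Rnf31 on the same strand in GENCODE, which leaves its value uncertain.

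Of the sensors of viral RNA, Ddx58, which encodes RIG-I, fell by 0.36 on the log2 scale (SE 0.13, limma adjusted p = 0.0412). This call was lost without control library 2 or 3, without hypoxia library 1 or 2 and without any single ethanolamine library (limma adjusted p = 0.0533 to 0.137). It was also lost with median-of-ratios scaling (limma adjusted p = 0.084), with no filter (0.0932) and with only the groups compared (0.0679). Dhx58, which encodes its relative LGP2, had a log2 change of -0.01 (SE 0.16, limma adjusted p = 0.97). Ifih1, which encodes MDA5, and Zbp1, a sensor of Z-form nucleic acids, were listed at 0 in all 9 libraries.

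Effectors directed at RNA fell for 4 of 6 tested members (beside 34.7% of all genes) and rose for 1 (beside 24.7%). Those 4 include Ifit2, which passed the filter through the control libraries alone, so its direction is partly set by the filter. Ifit2, of a family that binds viral RNA, had 0.643, 0.773 and 0.679 FPKM in hypoxia, against 2.08, 2.73 and 2.30 FPKM in control (log2 change -1.26, SE 0.17, limma adjusted p = 0.000163). The OAS enzymes make the oligoadenylates that switch on RNase L, and Oas2 had 1.94, 2.25 and 2.57 FPKM in hypoxia, against 4.20, 7.06 and 5.75 FPKM in control (log2 change -1.14, SE 0.17, limma adjusted p = 0.000364). In both genes the hypoxia libraries were all below the control libraries. Oas3, its neighbour on chromosome 5, fell by 1.14 (SE 0.15) and Oas1a by 0.46 (SE 0.08), and 57.6% of the 50-base stretches of Oas1a also occur in Oas1g, so reads could be split between them. Isg20, an RNA exonuclease, moved the other way, with 5.44, 4.92 and 5.31 FPKM in hypoxia, against 0.618, 0.953 and 1.44 FPKM in control (log2 change 1.96, SE 0.17, limma adjusted p = 1.08e-05). The hypoxia values of Isg20 were tightly grouped and far above every control value, and it had the largest rise of the 32 members.

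Oasl1, known in mice as a translational repressor of Irf7, was among the 4 most abundant members and was uneven within the hypoxic groups. It had 45.7, 25.1 and 47.4 FPKM in hypoxia, against 30.1, 29.0 and 30.4 FPKM in control (log2 change 0.34, SE 0.30, limma adjusted p = 0.351). Hypoxia library 2 lay below the control libraries and the other two above them. The ethanolamine libraries had 45.9, 23.1 and 46.1 FPKM, again with library 2 low.

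The other antiviral effectors that could be tested all fell, 4 of 4 (beside 34.7% of all genes). Cmpk2 among them passed the filter through the control libraries alone, so its direction is partly set by the filter. Rsad2 encodes viperin, which makes a chain-terminating nucleotide, and had 1.57, 2.02 and 1.70 FPKM in hypoxia, against 7.94, 10.9 and 10.7 FPKM in control (log2 change -2.18, SE 0.15, limma adjusted p = 2.83e-06). Cmpk2, a mitochondrial nucleotide kinase gene next to Rsad2 on chromosome 12 with a start site 12752 bases away in the opposite direction, had 0.262, 0.361 and 0.315 FPKM in hypoxia, against 1.93, 3.25 and 2.46 FPKM in control (log2 change -1.89, SE 0.18, limma adjusted p = 1.89e-05). Both neighbours thus had control values well clear of all hypoxia values. Bst2, which encodes tetherin and was the most abundant member, had 44.9, 44.2 and 49.8 FPKM in hypoxia, against 76.8, 66.4 and 72.8 FPKM in control (log2 change -0.63, SE 0.07, limma adjusted p = 5.64e-05). Its groups did not overlap either. Samhd1, which breaks down deoxynucleotides, fell by 0.88 (SE 0.06) on the log2 scale.

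In the ISG15 pathway, the modifier and its protease fell and a ligase was not called. Isg15 had 3.07, 3.23 and 4.55 FPKM in hypoxia, against 9.31, 12.9 and 10.4 FPKM in control (log2 change -1.47, SE 0.23, limma adjusted p = 0.000449). Usp18, which removes ISG15 from proteins and restrains the type I receptor, had 0.196, 0.669 and 0.718 FPKM in hypoxia, against 3.05, 4.76 and 3.55 FPKM in control (log2 change -2.08, SE 0.25, limma adjusted p = 9.6e-05). Every control library exceeded every hypoxia library for both. Usp18 passed the filter through the control libraries alone, so its direction is partly set by the filter. Trim25, a ubiquitin ligase of the RIG-I pathway, had 38.5, 42.6 and 43.0 FPKM in hypoxia, against 39.8, 40.1 and 40.2 FPKM in control (log2 change 0.04, SE 0.19, limma adjusted p = 0.857), and these groups overlapped.

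Among the interferon-inducible GTPases, 3 of 4 tested members fell (beside 34.7% of all genes). Those 3 include Igtp, which passed the filter through control and ethanolamine but not hypoxia, so its direction is partly set by the filter. Gbp3, a guanylate-binding protein gene, had 1.81, 2.63 and 2.45 FPKM in hypoxia, against 8.93, 11.0 and 10.2 FPKM in control (log2 change -1.92, SE 0.13, limma adjusted p = 1.85e-06). Its neighbour on chromosome 3, Gbp7, gave a log2 change of 0.00 (SE 0.23, limma adjusted p = 0.99), with overlapping groups of 1.35 to 2.51 FPKM in hypoxia and 1.28 to 2.64 FPKM in control. Gbp3 and Gbp7 lie in 1 cluster and have few 50-base stretches in common (3.75% of those of Gbp3). The exons of Gbp7 overlap those of Gm43802 on the same strand, which holds 10.5% of the 50-base stretches of Gbp7, so its value is uncertain. The immunity-related GTPase genes Igtp and Irgm1 fell by 1.24 (SE 0.23) and 0.88 (SE 0.13) on the log2 scale, and the exons of Igtp overlap those of Irgm2.

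The ADP-ribosyltransferase genes were mixed, with Parp12 lower by 0.81 on the log2 scale (SE 0.11). Parp14 had a log2 change of -0.46 (SE 0.18, limma adjusted p = 0.0564) and was called without hypoxia library 2 or control library 1 (limma adjusted p = 0.0465 and 0.0224), with the replicate block (0.0383), with quantile scaling (0.0376) and with no trend (0.0437), and Parp9 one of 0.11 (SE 0.10, limma adjusted p = 0.372). Dtx3l, the ubiquitin ligase that pairs with PARP9, fell by 0.39 (SE 0.11). Parp9 and Dtx3l start on opposite strands and overlap by 681 bases, and without stated strand use in the counting their values are uncertain.

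The HIN-200 and Schlafen genes that could be tested rose, 3 of 3 (beside 24.7% of all genes). Ifi204, a DNA-binding HIN-200 gene, had 12.8, 13.2 and 12.2 FPKM in hypoxia, against 4.40, 7.44 and 6.60 FPKM in control (log2 change 1.02, SE 0.15, limma adjusted p = 0.000367). Its relative Ifi203 had 3.76, 4.72 and 4.26 FPKM in hypoxia, against 2.39, 3.18 and 2.64 FPKM in control (log2 change 0.56, SE 0.12, limma adjusted p = 0.00296). For both, all hypoxia values stood above all control values, although 20.0% of the 50-base stretches of Ifi204 and 12.4% of those of Ifi203 occur in other genes. Slfn2, a Schlafen gene known in mice for keeping T cells quiescent, had 24.4, 24.2 and 24.4 FPKM in hypoxia, against 18.0, 22.4 and 21.8 FPKM in control (log2 change 0.23, SE 0.09, limma adjusted p = 0.0426), without overlap. This small rise passed the threshold in 10 of 19 other settings and was lost without ethanolamine library 3, without control library 1 and without any single hypoxia library, where the limma adjusted p was 0.0589 to 0.114. It was also lost without ribosomal RNA-like and mitochondrial transcripts (limma adjusted p = 0.0783).

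Ifi35, whose product binds the interferon-induced protein NMI, was the 1 tested gene of the remaining members. It had 4.17, 4.65 and 4.71 FPKM in hypoxia, against 11.9, 12.7 and 11.9 FPKM in control (log2 change -1.34, SE 0.11, limma adjusted p = 8.37e-06). No hypoxia library came near a control library. Of the 50-base stretches of Ifi35, 10.4% also occur in Gm11626 on the opposite strand, and the strand setting is not stated.

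**Figure D3:**
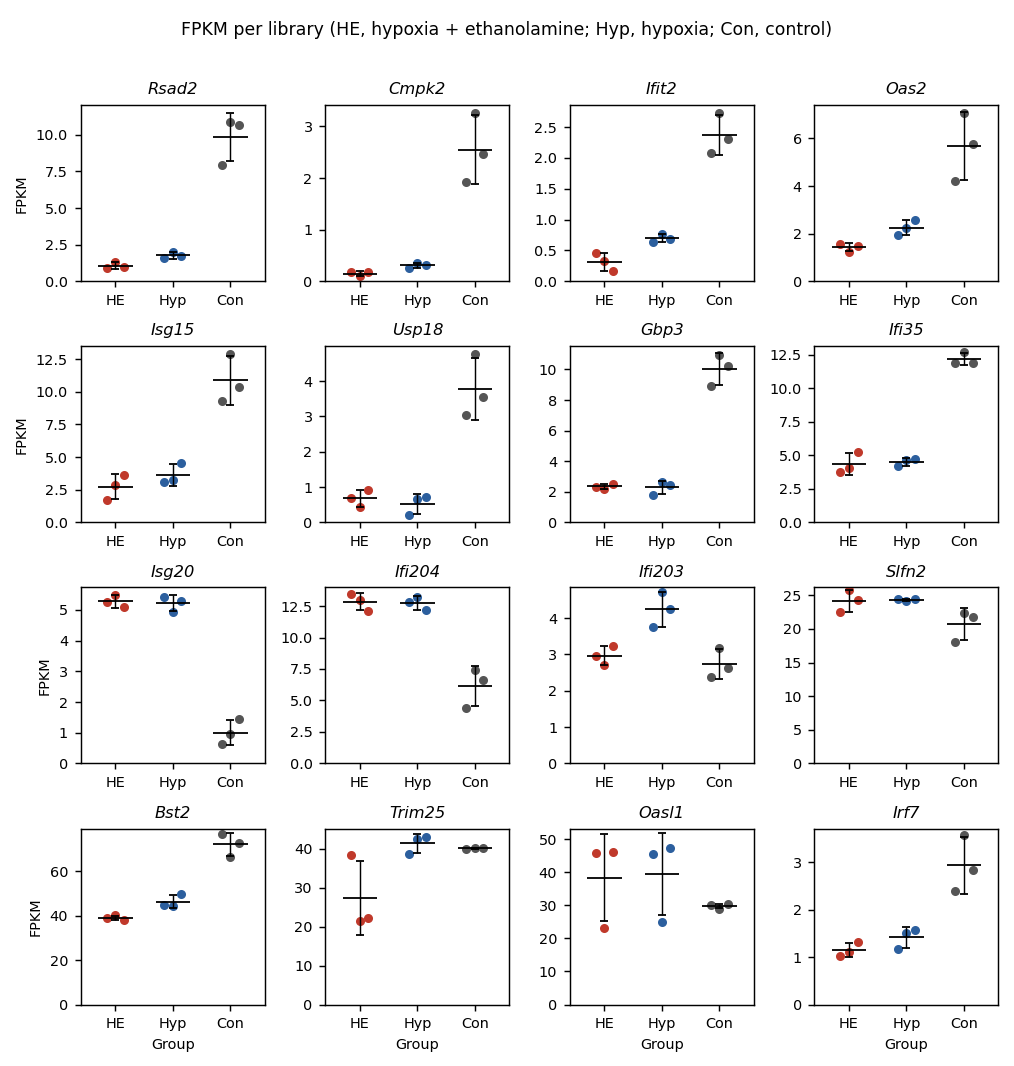
FPKM of 16 members in each library (points), with the group mean and SD (bars), for hypoxia with ethanolamine (red, left), hypoxia (blue) and control (grey, right). Control lies highest for Rsad2, Cmpk2, Ifit2, Oas2, Isg15, Usp18, Gbp3, Ifi35, Bst2 and Irf7 and lowest for Isg20 and Ifi204, while Trim25 splits within the ethanolamine group (38.3, 21.5 and 22.1 FPKM).

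The 20 members under the filter reached at most 2.31 FPKM in any library. Their mean was lower in hypoxia than in control for 14 and higher for 4, and the libraries did not overlap for 9 that were lower (beside 37.7% of the tested genes) and 2 that were higher (beside 27.3%). Those shares are of genes that passed the filter. None was computed for genes under it, so these counts have no like share to be read against. Ifit1 averaged 0.366 ± 0.0796 FPKM in hypoxia and 1.88 ± 0.652 FPKM in control, and Ifit3 averaged 0.468 ± 0.124 FPKM in hypoxia and 1.25 ± 0.209 FPKM in control (SD, n = 3). Ifit3 shares 51.2% of its 50-base stretches with other genes, most with its neighbour Ifit3b. Rtp4, a Golgi chaperone gene, averaged 0.564 ± 0.153 FPKM in hypoxia and 1.08 ± 0.264 FPKM in control, and Herc6, the ISG15 ligase gene of mice, averaged 0.591 ± 0.0400 FPKM in hypoxia and 1.10 ± 0.0606 FPKM in control. The 2 that were higher were Ifi47, a GTPase gene, at 0.649 ± 0.114 FPKM in hypoxia and 0.0855 ± 0.0391 FPKM in control, and Slfn5, at 0.188 ± 0.0227 FPKM in hypoxia and 0.0395 ± 0.00420 FPKM in control. Mx1 and Mx2, known for restricting viruses, were listed at 0 in all 6 hypoxic libraries and at no more than 0.0763 FPKM in control. Mx2 is annotated as a polymorphic pseudogene. Ifit3b, Oasl2, Gbp2 and Xaf1 were also lower in hypoxia without overlap, and the groups of Trim30a, Gbp5, Gbp9, Ifi44, Ifitm3 and Sp100 overlapped.

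Ethanolamine under hypoxia against hypoxia asks what the supplement adds at low oxygen. No member was called, with 0 of 32 beside 0.568% of all genes (0.119% higher and 0.449% lower), and this background count itself ran from 0 to 38 when any 1 of the 9 libraries was left out. At an unadjusted p under 0.05 limma gave 9 members (28.1%), beside 14.7% of all genes, of which 7 were lower (21.9%, beside 7.81%). Of the 32 members, 23 had a change below 0 (71.9%, beside 46.7%), with a median of -0.14 over the members and 0.01 over all genes. The ethanolamine libraries lay below all hypoxia libraries for 9 members (beside 11.2% of all genes) and above them for 2 (beside 10.5%). This comparison shares its hypoxia libraries with that of hypoxia against control, so a hypoxia library that is high or low by chance moves both.

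The 4 largest differences were all lower with ethanolamine, and none passed the threshold. Trim25 had 38.3, 21.5 and 22.1 FPKM with ethanolamine, against 38.5, 42.6 and 43.0 FPKM in hypoxia (log2 change -0.64 with SE 0.19, limma adjusted p = 0.173). Ethanolamine library 1 lay just under the lowest hypoxia library, and the other two were well below them. Without that library Trim25 was called (log2 change -0.90, limma adjusted p = 0.00376), the 1 member that was. Ifit2 had 0.462, 0.322 and 0.158 FPKM with ethanolamine, against 0.643, 0.773 and 0.679 FPKM in hypoxia (log2 change -0.57 with SE 0.17, limma adjusted p = 0.172). Rsad2 had 0.876, 1.32 and 0.963 FPKM with ethanolamine, against 1.57, 2.02 and 1.70 FPKM in hypoxia (log2 change -0.55 with SE 0.15, limma adjusted p = 0.156). Oas2 had 1.57, 1.23 and 1.48 FPKM with ethanolamine, against 1.94, 2.25 and 2.57 FPKM in hypoxia (log2 change -0.51 with SE 0.17, limma adjusted p = 0.222). The groups of Trim25, Ifit2, Rsad2 and Oas2 did not overlap. Ifi203 had the lowest adjusted p of the members, with 2.97, 2.71 and 3.23 FPKM with ethanolamine, against 3.76, 4.72 and 4.26 FPKM in hypoxia (log2 change -0.45 with SE 0.12, limma adjusted p = 0.139).

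**Figure D4:**
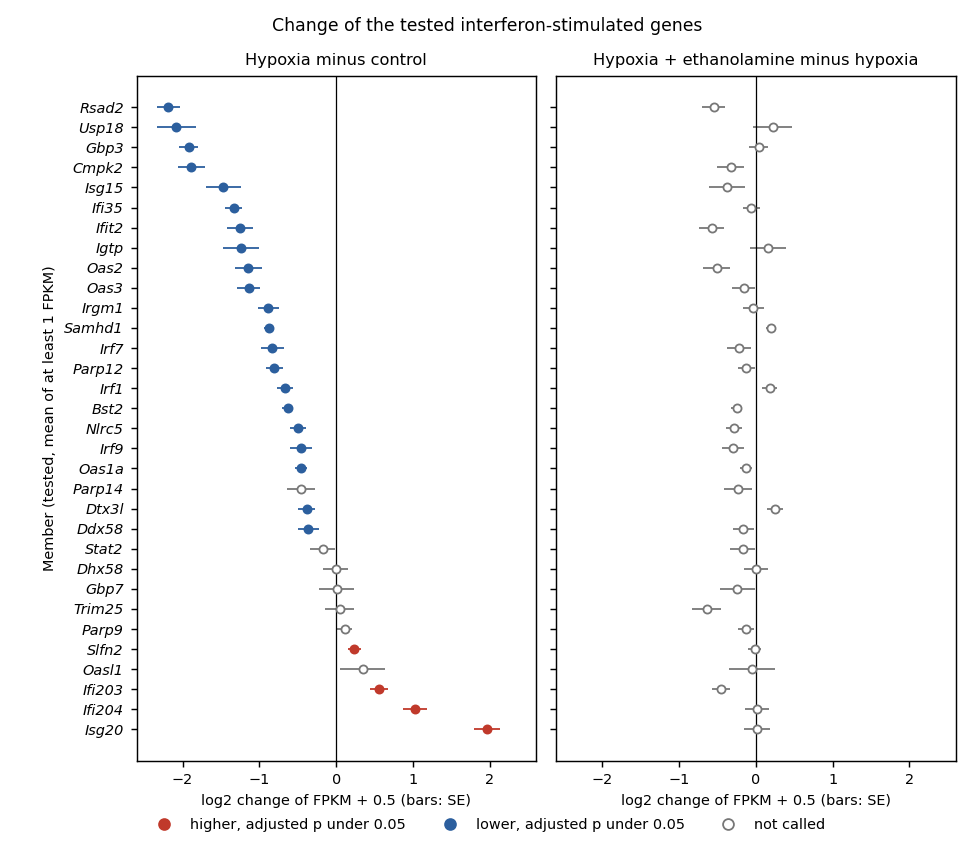
log2 change ± SE of the 32 tested members, for hypoxia minus control (left) and hypoxia with ethanolamine minus hypoxia (right), with filled points past an adjusted p of 0.05. In the left panel 21 points are lower and 4 higher; in the right panel no point is filled.

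Other members differed by less. Bst2 had 38.8, 40.1 and 37.9 FPKM with ethanolamine, below every hypoxia library (log2 change -0.25, SE 0.07, limma adjusted p = 0.167), and Isg15 had 1.75, 2.84 and 3.63 FPKM, overlapping hypoxia (log2 change -0.37, SE 0.23, limma adjusted p = 0.495). Samhd1 (log2 change 0.20, SE 0.06) and Dtx3l (0.25, SE 0.11) were the 2 members whose ethanolamine libraries all lay above hypoxia, with limma adjusted p = 0.199 and 0.32. Gbp3 had 2.30, 2.21 and 2.54 FPKM, Isg20 had 5.25, 5.49 and 5.09 FPKM and Ifi204 had 13.4, 13.0 and 12.1 FPKM with ethanolamine. Their log2 changes were 0.04 (SE 0.13), 0.01 (SE 0.17) and 0.01 (SE 0.15), and all 3 overlapped hypoxia and turned to -0.00154, -0.0281 and -0.0319 when ribosomal RNA-like and mitochondrial transcripts were left out.

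Ethanolamine under hypoxia against control gave 22 of 32 members lower (68.8%, beside 34.4% of all genes) and 2 higher (6.25%, beside 24.1%), and 58.5% of all genes were called in either direction. A fall of at least 1 on the log2 scale was called for 11 members (34.4%, beside 7.26%) and a rise of that size for 2 (beside 6.32%). Those 11 include Ifit2, Cmpk2, Usp18 and Igtp, and among the 26 members at 1 FPKM in each group 16 were lower (61.5%, beside 35.1%), 2 were higher (7.69%, beside 22.9%) and 7 fell by at least 1 (26.9%, beside 6.75%). The groups did not overlap for 22 that were lower (beside 37.7%) and 3 that were higher (beside 26.8%). The control libraries are those of the first comparison, so this is not independent of it. The largest falls were those of Rsad2 (log2 change -2.73, SE 0.15), Cmpk2 (-2.21, SE 0.18), Gbp3 (-1.88, SE 0.13), Usp18 (-1.86, SE 0.25), Isg15 (-1.84, SE 0.23) and Ifit2 (-1.83, SE 0.17). Cmpk2 had 0.174, 0.0970 and 0.173 FPKM with ethanolamine and Usp18 had 0.681, 0.446 and 0.910 FPKM, all far below control. The members that rose were Isg20 (1.98, SE 0.17) and Ifi204 (1.04, SE 0.15). Irf7 had 1.02, 1.11 and 1.32 FPKM with ethanolamine and was lower than control (log2 change -1.05, SE 0.15, limma adjusted p = 0.000318). Irf9, with 1.01, 1.49 and 1.42 FPKM, was lower too (log2 change -0.76, SE 0.14, limma adjusted p = 0.00143), as was Irf1, with 2.54, 2.40 and 2.63 FPKM (log2 change -0.49, SE 0.10, limma adjusted p = 0.00275). For these 3 factors no ethanolamine library reached a control library, whereas Stat2, with 0.944, 0.856 and 1.21 FPKM, overlapped control (log2 change -0.35, SE 0.16, limma adjusted p = 0.0947). Ifi35 had 3.73, 4.06 and 5.25 FPKM with ethanolamine (log2 change -1.40, SE 0.11).

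Calls against control differed between the hypoxic groups for a few members, while the direct comparison of those groups called none of them. Trim25 was lower than control with ethanolamine (log2 change -0.60, SE 0.19, limma adjusted p = 0.0218), a call lost without ethanolamine library 2 or 3 (limma adjusted p = 0.0782 and 0.0776), without control library 2 or 3 (0.0509 and 0.0529) and with no filter (0.0602). Parp14 was also lower (log2 change -0.69, SE 0.18, limma adjusted p = 0.00974). Dtx3l (log2 change -0.14, SE 0.11, limma adjusted p = 0.302), Ifi203 (0.11, SE 0.12, limma adjusted p = 0.476) and Slfn2 (0.22, SE 0.09, limma adjusted p = 0.0525) were called in hypoxia alone and not here. Slfn2 had 22.5, 25.7 and 24.2 FPKM with ethanolamine and was called in 6 other settings, among them the replicate block (limma adjusted p = 0.0391), median-of-ratios and quantile scaling (0.0123 and 0.0153), and without ethanolamine library 1 or control library 2 (0.0421 and 0.0317). For Slfn2 and Parp14 the difference in calls therefore turns with the processing.

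The rest of the pathway was read from lists of genes that are not members, ordered from ligand to target. Interferon genes themselves were nearly silent. None of 20 type I and III ligands passed the filter, and Ifnb1, the beta interferon gene, had 0, 0.128 and 0 FPKM with ethanolamine, 0, 0.00328 and 0 FPKM in hypoxia, and 0.0714, 0 and 0.0847 FPKM in control. Ifng, the type II ligand, was listed at 0 in all 9 libraries. No ligand reached the level needed for a test.

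In hypoxia 4 of 5 tested receptor genes were higher than control (beside 24.7% of all genes) and 1 was lower (beside 34.7%). Ifnar1 had 13.1, 12.5 and 12.3 FPKM in hypoxia, against 9.94, 9.75 and 9.61 FPKM in control (log2 change 0.36, SE 0.08, limma adjusted p = 0.00478). Ifnar2, the other chain of the type I receptor, had 11.1, 9.92 and 9.38 FPKM in hypoxia, against 12.6, 11.1 and 12.1 FPKM in control (log2 change -0.23, SE 0.08, limma adjusted p = 0.0328). Neither chain's groups overlapped, though for Ifnar2 the nearest libraries differed by under 0.1 FPKM. The call of Ifnar2 was lost with median-of-ratios and quantile scaling (limma adjusted p = 0.192 and 0.216) and without hypoxia library 2 or 3 or control library 1 or 3 (0.0813 to 0.113). It was also lost with no filter (limma adjusted p = 0.0536) and with only the groups compared (0.0563). Of the type II receptor, Ifngr2 rose by 0.60 (SE 0.05) and Ifngr1 by 0.38 (SE 0.14) on the log2 scale, and Il10rb, a chain of the type III receptor, rose by 0.26 (SE 0.07). The call of Ifngr1 was lost without ethanolamine library 1 or 2, hypoxia library 1 or 2 or control library 2 or 3 (limma adjusted p = 0.0532 to 0.135). It was also lost with no filter (limma adjusted p = 0.08875) and with only the groups compared (0.069).

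Of the kinases, Jak1 rose most, with 49.9, 52.8 and 47.5 FPKM in hypoxia, against 24.9, 26.9 and 25.4 FPKM in control (log2 change 0.95, SE 0.06, limma adjusted p = 1.52e-06). Tyk2 and Jak2 rose by 0.53 (SE 0.10) and 0.27 (SE 0.09). The call of Jak2 was lost without hypoxia library 2 or 3 or control library 1 (limma adjusted p = 0.0741 to 0.0852). It was also lost without ribosomal RNA-like and mitochondrial transcripts (limma adjusted p = 0.0572), with no filter (0.0508) and with only the groups compared (0.05445). With ethanolamine Jak1 had 49.5, 46.8 and 46.1 FPKM, and no receptor or kinase gene was called against hypoxia.

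**Figure D5:**
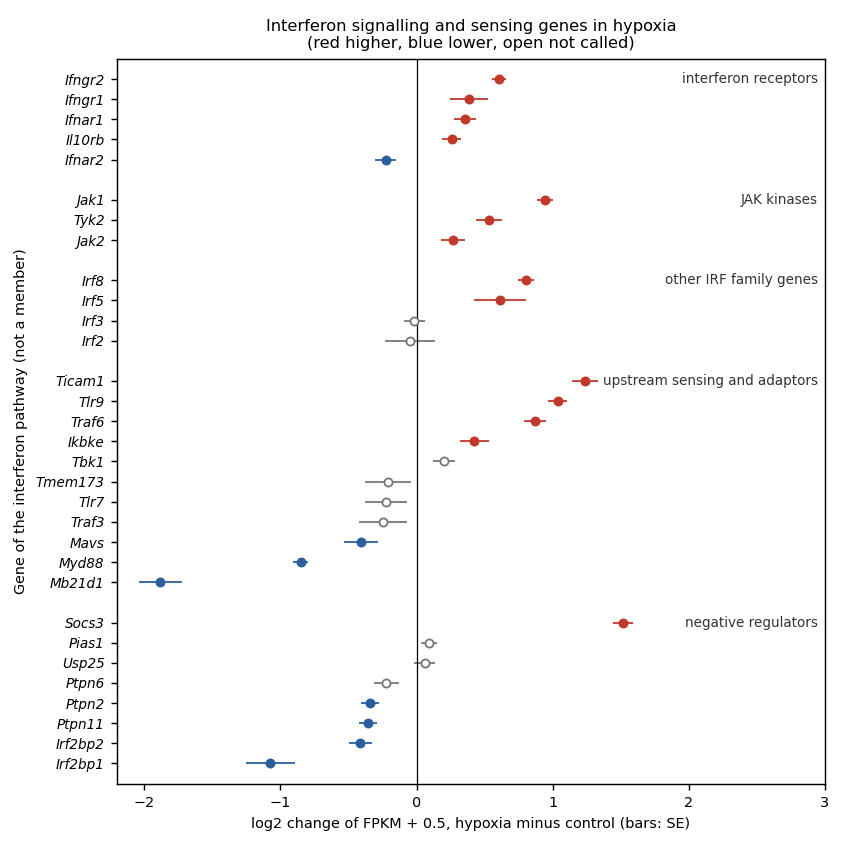
log2 change ± SE in hypoxia minus control of tested receptor, kinase, IRF, sensing and regulator genes that are not members, by role (red higher, blue lower, open not called at an adjusted p of 0.05). Of the receptors 4 are higher and 1 is lower, 3 kinase genes are higher, and of the genes drawn Mb21d1 is the lowest point and Socs3 the highest.

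Genes that sense nucleic acids and relay the signal to interferon transcription were near the shares of all genes, 4 of 11 tested being higher in hypoxia (beside 24.7%) and 3 lower (beside 34.7%). Mb21d1, which encodes the DNA sensor cGAS, had 2.64, 3.39 and 2.30 FPKM in hypoxia, against 12.7, 13.1 and 9.05 FPKM in control (log2 change -1.88, SE 0.16, limma adjusted p = 8.42e-06). Ticam1, the TRIF adaptor gene, had 15.3, 15.8 and 16.0 FPKM in hypoxia, against 7.45, 5.94 and 5.78 FPKM in control (log2 change 1.24, SE 0.10, limma adjusted p = 5.33e-06). Neither gene's groups overlapped. Tlr9, an endosomal DNA receptor gene, rose by 1.04 (SE 0.07) and Traf6, a ubiquitin ligase of receptor signalling, by 0.87 (SE 0.08). Among the other IRF genes Irf8 rose by 0.81 (SE 0.06) and Irf5 by 0.61 (SE 0.19). The call of Irf5 was lost without hypoxia library 1 or 3 or control library 2 or 3 (limma adjusted p = 0.0537 to 0.0709). It was also lost with no filter (limma adjusted p = 0.0536).

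Of 8 tested negative regulators, 1 rose (beside 24.7% of all genes) and 4 fell (beside 34.7%) in hypoxia, counts too small to set apart from those shares. Socs3, a feedback inhibitor of JAK kinases, had 25.7, 25.1 and 24.6 FPKM in hypoxia, against 8.89, 8.51 and 7.97 FPKM in control (log2 change 1.52, SE 0.07, limma adjusted p = 2.98e-07). Its ethanolamine values, 21.8, 20.4 and 18.5 FPKM, all lay below hypoxia without a call (log2 change -0.31, SE 0.07, limma adjusted p = 0.111). The corepressor genes Irf2bp1 and Irf2bp2 fell by 1.08 (SE 0.18) and 0.41 (SE 0.08), and the phosphatase gene Ptpn11 by 0.36 (SE 0.07).

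Of further interferon-induced genes outside the 52, 19 of 45 tested were lower (beside 34.7% of all genes) and 13 higher (beside 24.7%) in hypoxia, with a median log2 change of -0.12. Cxcl10, a chemokine gene, had 0.366, 0.431 and 0.412 FPKM with ethanolamine, 0.905, 1.34 and 1.13 FPKM in hypoxia, and a mean of 11.2 ± 0.781 FPKM in control (SD, n = 3). No 2 of its groups overlapped. It was the 1 gene of all these pathway lists called between ethanolamine and hypoxia (log2 change -0.84, SE 0.12, limma adjusted p = 0.0271). That call was lost when any single ethanolamine library, hypoxia library 2 or 3 or control library 2 or 3 was left out (limma adjusted p = 0.0574 to 0.109). It was also lost with the replicate block (limma adjusted p = 0.052), with no filter (0.0579) and with only the groups compared (0.1265). Cxcl10 had the largest fall of these genes in hypoxia against control (log2 change -2.85, SE 0.12, limma adjusted p = 1.4e-07). Slfn3 fell by 1.50 (SE 0.09), the opposite direction to its family member Slfn2. Ifi211, a HIN-200 gene that shares 14.8% of the 50-base stretches of Ifi204, rose by 1.41 (SE 0.35), with 2.82, 2.27 and 2.17 FPKM in hypoxia, against 0.0694, 1.27 and 0.808 FPKM in control. Ccl12, a chemokine gene, had 1.51, 0.687 and 0.790 FPKM with ethanolamine and 2.40, 1.72 and 1.98 FPKM in hypoxia, and was listed at 0 in each control library. It passed the filter through the hypoxic libraries alone, so its direction is partly set by the filter. Without ethanolamine library 1 or any single hypoxia library, Ccl12 was under the filter.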

How the data were processed

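The deposited table gives FPKM, computed by the authors, for each gene in 9 libraries. The submitters' processing notes name the build GRCm38 (mm10); which aligner, quantifier and strand setting were used is not stated there or in the labels. Per the labels' protocols, libraries were made from 1.3 µg of total RNA with a SMARTER mRNA kit. FPKM divides by each library's total, so abundant transcripts that gain share push other values down. Low FPKM values shared no common step, so reads could not be recovered and no counting interval is given. Groups came from the sample titles.

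The fit took the 11802 genes (of 27339 above 0) whose 9-library mean reached 1 FPKM and modelled log2(FPKM + 0.5) with limma-trend (limma 3.58.1, R 4.3.3), all 3 groups together and without covariates. Contrasts were two-sided, with Benjamini-Hochberg adjustment over all tested genes at 0.05. Log2 changes understate those of low genes. An exact permutation test of 3 against 3 libraries cannot go below 0.1 and was not used. The code was checked on simulated data. Promoter matches were counted in RefSeq windows; positions came from GENCODE M21. Named are the 6 lowest and 4 highest called members per comparison (where none was called, the 4 largest changes), the 4 most abundant, Irf1, Irf7, Irf9 and Stat2, the receptors, kinases and Ifnb1, and up to 4 called genes per pathway list; Ifi203, Bst2, Isg15, Samhd1 and Dtx3l in the ethanolamine comparison, and members under the filter, were chosen after their values were seen. One gene that this rule names is not reported here. The members and lists were chosen with earlier results of these data known. Alternatives were other pseudocounts, filters and scalings, a replicate block, only the groups compared, no trend, a minimum log2 change of 1 for a call, and the omission of each library.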

Additional observations from a re-analysis of the deposited data

How the results depend on the processing

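With a filter of 5 FPKM, 11 members were tested and 8 were called for hypoxia against control and 9 for ethanolamine under hypoxia against control, with 4671 and 4603 of the 7241 genes tested (72.7% and 81.8% of members, beside 64.5% and 63.6% of genes). With a log2 change of at least 1 these were 12 and 13 members and 1808 and 1603 genes (37.5% and 40.6% of members, beside 15.3% and 13.6% of genes). Leaving out 1 library gave 21 to 24 members (6398 to 6974 genes) for hypoxia against control. These were 68.8% to 77.4% of tested members, beside 54.2% to 59% of genes. For ethanolamine under hypoxia against control it gave 21 to 25 members (6215 to 6914 genes), 70% to 78.1%, beside 52.7% to 58.7%. For ethanolamine under hypoxia against hypoxia, all genes called were 40 with no filter, 6 with only the groups compared, 0 with the replicate block and 9 with a log2 change of at least 1. They were 22, 5 and 12 without ethanolamine library 1, 2 or 3, 23, 3 and 0 without hypoxia library 1, 2 or 3, and 38, 34 and 23 without control library 1, 2 or 3. Members called there were 0 to 1, the 1 being Trim25 without ethanolamine library 1.

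Same-numbered libraries did not deviate together (correlations of -0.117 to 0.109, 1 of 9 above 0.1), and a library correlated best with its own number in 8 of 18 checks, so the numbers were not taken as pairs. With the replicate block 26, 0 and 25 members were called for hypoxia against control, ethanolamine against hypoxia and ethanolamine against control. These were 81.2%, 0% and 78.1% of the tested members, beside 58.5%, 0% and 57.3% of all genes.

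Uncalled log2 changes of ethanolamine against hypoxia changed sign without ribosomal RNA-like and mitochondrial transcripts for Gbp3 (-0.00154), Isg20 (-0.0281) and Ifi204 (-0.0319). When single libraries were left out they ran from -0.0938 to 0.124 for Gbp3, -0.0236 to 0.0419 for Isg20, -0.0182 to 0.0529 for Ifi204, -0.189 to 0.0332 for Ifi35, -0.0572 to 0.0369 for Slfn2, -0.0358 to 0.372 for Usp18 and -0.343 to 0.275 for Oasl1. The cause was not tested. Read depth is unknown, so levels near 0 carry no counting error here.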
